A study of Mus musculus with 6 samples.

Results

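The comparison described here sets the transcriptional response labelled as a 6 h exposure against the responses labelled as 48 h exposures, and asks whether genes of the early or the late phase of a response differ between them. All 6 mouse libraries of the series enter it: 2 are labelled 6 h and 4 are labelled 48 h. Every library came from cells homozygous for a floxed Mdm2 allele and null for p53 (Mdm2 fl/fl p53-/-). The labels name a T cell lymphoma and a sarcoma, which were tumours kept in short-term culture, and adult fibroblasts grown out of ear punches. Cells were infected with a retrovirus encoding GFP with CreERT2, a Cre recombinase activated by 4-hydroxytamoxifen (4-OHT), or GFP alone, and the labels do not state which vector each library carried. Each labelled cell type has 1 library given 4-OHT, at a labelled dose of 1 mM, and labelled Mdm2 deleted, and 1 library given ethanol vehicle. Cells labelled lymphoma, grown in RPMI 1640, were exposed for 6 h, while those labelled sarcoma or fibroblast, grown in DMEM, were exposed for 48 h. Exposure time, cell type label and medium therefore cannot be told apart. The labels give how long the agent was present and do not give the time of harvest. A GFP-only control for 4-OHT is not among the labelled libraries, and deletion and agent cannot be told apart either.

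Transcriptional responses to an inflammatory or mitogenic stimulus come in phases. Immediate early genes, such as those for the Fos, Jun and Egr factors, and primary NF-kB targets, such as Nfkbia and Cxcl1, are induced through proteins already present in the cell, and their transcripts are short-lived. Interferon-stimulated genes such as Ifit1 need a round of protein synthesis in the usual case, because interferon must first be made and must then act through its receptor, and antigen presentation and secondary inflammatory genes follow. Mdm2 encodes the ubiquitin ligase that restrains p53.

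Promoters of 4 genes that recur in the results are printed to show the elements that distinguish the phases in textbook accounts. Each is the 250 bases before the RefSeq transcript start in GRCm38.p6, given 5′ to 3′ on the strand of the gene. Capitals mark matches to the core of the interferon regulatory factor (IRF) element, GAAANNGAA or its reverse complement TTCNNTTTC, and to the NF-kB consensus.
Cxcl1: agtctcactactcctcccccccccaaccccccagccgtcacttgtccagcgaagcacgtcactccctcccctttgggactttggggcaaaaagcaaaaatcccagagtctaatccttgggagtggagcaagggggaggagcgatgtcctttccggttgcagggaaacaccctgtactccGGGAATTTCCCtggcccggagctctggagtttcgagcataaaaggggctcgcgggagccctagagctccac
Nfkbia: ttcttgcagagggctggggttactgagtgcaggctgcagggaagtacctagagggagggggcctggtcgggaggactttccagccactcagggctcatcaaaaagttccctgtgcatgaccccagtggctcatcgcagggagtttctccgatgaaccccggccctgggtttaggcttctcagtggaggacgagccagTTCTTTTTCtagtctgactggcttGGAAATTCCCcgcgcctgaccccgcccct
Cxcl10: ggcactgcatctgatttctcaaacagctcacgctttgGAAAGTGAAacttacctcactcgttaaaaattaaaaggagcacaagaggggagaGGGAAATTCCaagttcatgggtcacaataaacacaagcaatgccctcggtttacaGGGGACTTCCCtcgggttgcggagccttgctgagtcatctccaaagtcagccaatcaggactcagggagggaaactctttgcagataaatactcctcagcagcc
Ifit1: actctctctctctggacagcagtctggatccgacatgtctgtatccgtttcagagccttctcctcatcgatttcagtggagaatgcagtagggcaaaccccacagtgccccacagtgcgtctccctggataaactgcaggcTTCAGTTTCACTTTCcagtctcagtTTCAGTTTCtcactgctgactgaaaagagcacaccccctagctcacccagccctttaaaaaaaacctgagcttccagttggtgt
The Cxcl1 window (chr5:90890995-90891244, plus strand) holds 1 stretch of overlapping NF-kB matches and 0 IRF matches. The Nfkbia window (chr12:55492648-55492897, minus strand) holds 1 match of each kind. The Cxcl10 window (chr5:92348890-92349139, minus strand) holds 1 IRF match and 3 NF-kB matches, 2 of which overlap. The Ifit1 window (chr19:34640639-34640888, plus strand) holds 3 IRF matches, 2 of which overlap, and 0 NF-kB matches. Among 32851 such windows of 27025 genes, 7.13% held an IRF match and 7.25% an NF-kB match. A match describes letters in the window and no binding was measured.

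Marker values went against the lymphoma label and did not set the labelled cell types apart, so libraries are named below by their labels only. No transcript measured here checks the labels of exposure time, which may be wrong as well. Of 12 T cell genes other than Thy1 (among them Cd3e, Cd4, Cd8a and the T cell receptor constant genes), 5 had 0 counts in every library, and only Lck passed 1 CPM (read counts scaled to a common library size with TMM factors), at up to 4.07 CPM. Their summed level was 1.90 CPM in the vehicle and 3.70 CPM in the 4-OHT library labelled lymphoma, against 2.04 to 4.25 CPM in the other 4 libraries. Thy1, on the T cell and the mesenchymal list alike, stood at 59.1 to 97.8 CPM over all 6 libraries. Ptprc, Coro1a and Laptm5, which mark leukocytes, each stayed at or below 0.607 CPM. The 9 mesenchymal genes, among them Col1a1, Col3a1 and Vim, summed to 17560 CPM in the vehicle and 10330 CPM in the 4-OHT library labelled lymphoma, within 10120 to 18520 CPM over all 6. Of the 9 mesenchymal genes, 8 passed 1 CPM, and Lum stayed at or below 0.493 CPM. Skeletal muscle genes summed to at most 0.448 CPM. The contrast cannot be made without the pair labelled lymphoma, whose markers go against its label.

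Mdm2, the gene labelled as deleted, stood at 28.1 CPM with vehicle and 30.9 CPM with 4-OHT in the pair labelled lymphoma. The pair labelled fibroblast had 28.4 and 30.2 CPM, and the pair labelled sarcoma 29.0 and 30.8 CPM. No pair showed a lower Mdm2 level with 4-OHT. The labels do not name the deleted exons, and a gene sum also counts reads outside them. Trp53, the null gene, had 22.4 and 24.1 CPM in the pair labelled lymphoma and 24.0 to 28.2 CPM in the other 4 libraries. Libraries held 26243064 to 37517726 estimated counts. Small noncoding RNA took 8.50% to 11.6% of them, and annotated ribosomal RNA 0.573% to 3.62%. Within an arm, libraries with different labels were close: the SD over genes of their log2 difference ran from 0.111, between the 4-OHT libraries labelled fibroblast and lymphoma, to 0.166, between the vehicle libraries labelled lymphoma and sarcoma. The median chi-square per gene of these comparisons was 0.673 to 2.50, against 0.455 for counting noise alone. Differences beyond counting noise do not tell whether the libraries came from different cells or cultures.

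For each label the response of a gene is its log2 ratio of CPM + 0.5, 4-OHT over vehicle. The exposure contrast is the ratio of the pair labelled lymphoma (6 h) minus the mean of the ratios of the pairs labelled fibroblast and sarcoma (48 h). A value above 0 means a ratio higher in the pair labelled 6 h. The noise scale is the ratio labelled fibroblast minus the ratio labelled sarcoma, multiplied by 0.866, which gives it the variance of the contrast if the 3 ratios vary alike. Both were taken for the 10856 genes whose mean over the 6 libraries reached 5 CPM, on a log scale that understates the changes of low genes. Each group holds 1 library, so the contrast is a description.

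Across genes the pair labelled 6 h lay as near to the 48 h pairs as those lay to each other. The SD of the contrast over 10856 genes was 0.139, and that of the noise scale was 0.176, a ratio of 0.789. The spread that ignores extreme genes (scaled median absolute deviation) was 0.106 for the contrast and 0.131 for the noise scale. The contrast was the smaller of the 2 in absolute size for 56.8% of genes. Its central 95% ran from -0.29 to 0.27, and that of the noise scale from -0.36 to 0.31. Ratios labelled lymphoma and fibroblast differed with an SD of 0.163, lymphoma and sarcoma with 0.181, and fibroblast and sarcoma, the pairs that share the 48 h label, with 0.203. The response itself was wider, with SDs over genes of 0.499 (lymphoma), 0.498 (fibroblast) and 0.513 (sarcoma). The ratio of the SDs was 0.880 among the 1758 genes of 5 to 10 CPM and between 0.771 and 0.810 in the bins up to 1000 CPM. It was 0.335 among the 88 genes of 1000 CPM and over, a bin in which the noise scale had an SD of 0.565; the ratio of the median absolute deviations there was 0.685. Among 9873 protein-coding genes it was 0.879.

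**Figure D1:**
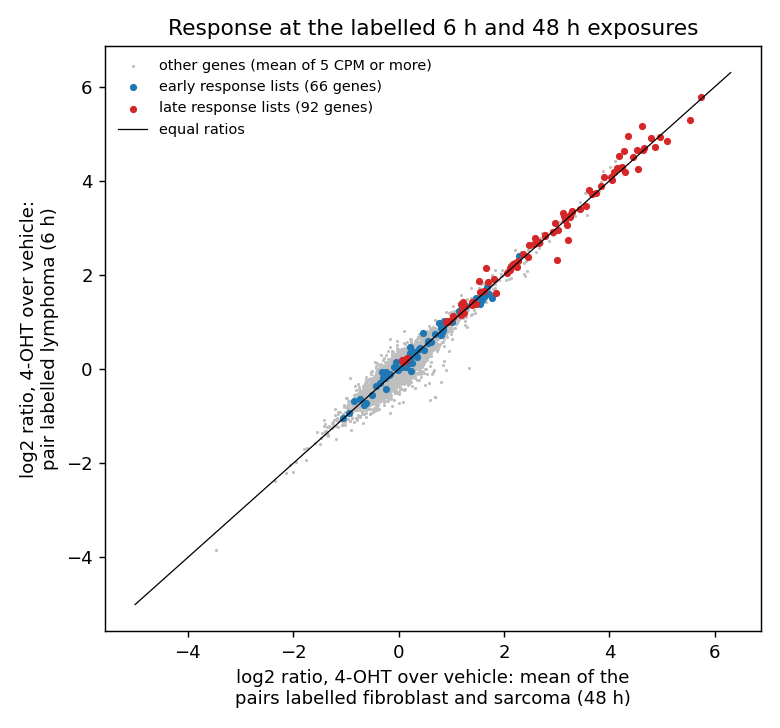
Log2 ratio of 4-OHT over vehicle in the pair labelled lymphoma (6 h, y axis) against the mean of the pairs labelled fibroblast and sarcoma (48 h, x axis), 1 point per gene of at least 5 CPM, with the 66 genes of the early lists in blue, the 92 of the late lists in red and the line of equal ratios in black. Both sets follow the line, and the late genes extend to the highest ratios in both.

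**Figure D2:**
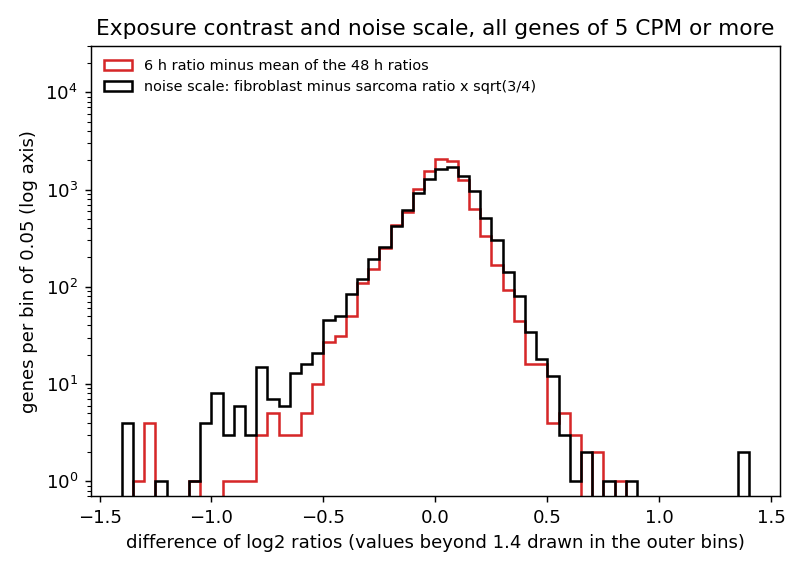
Number of genes per bin of 0.05 (log axis) for the exposure contrast (red) and the noise scale (black), in log2 units, over the 10856 genes of at least 5 CPM. The red outline is the narrower, with SDs of 0.139 and 0.176.

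Few genes had a large contrast. None of the 10856 had a contrast of 1 or more, which is 2-fold, and 6 had -1 or less, where the noise scale gave 2 and 10 genes at the same limits. A contrast of at least 0.5 was found for 15 genes (0.138%), and one of -0.5 or less for 38 genes (0.35%), where the noise scale gave 22 and 108. The ratio of the pair labelled lymphoma lay above both others for 4147 genes (38.2%), between them for 4295 and below both for 2414 (22.2%). The median contrast of all genes was 0.03, and the split above and below moved with the scaling, from 3482 above and 2822 below with protein-coding genes only to 6855 above and 963 below on the deposited TPM values. On TPM, 109 genes passed 1 in each direction and the ratio of the SDs was 0.948.

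Genes with at least a 2-fold response in 1 pair responded in the pairs not used to pick them. In the pair labelled lymphoma 290 genes (2.67%) were at least 2-fold higher with 4-OHT. Their median log2 ratio was 1.71 under the label fibroblast and 1.64 under the label sarcoma, and 271 and 268 of them were at least 2-fold higher there. The pair labelled fibroblast had 292 such genes (2.69%), with a median of 1.71 in the pair labelled lymphoma and 1.61 in the pair labelled sarcoma, 271 and 264 of them 2-fold higher. From the pair labelled sarcoma came 296 genes (2.73%), with medians of 1.70 in each of the other pairs and 264 (fibroblast) and 268 (lymphoma) of them 2-fold higher. Genes at least 2-fold lower numbered 77 (0.709%), 68 (0.626%) and 85 (0.783%) in the pairs labelled lymphoma, fibroblast and sarcoma. The 68 of the pair labelled fibroblast had medians of -1.16 (lymphoma) and -1.26 (sarcoma). The pair labelled 6 h therefore had about as many genes past 2-fold, in each direction, as either pair labelled 48 h.

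Among the early lists, the immediate early genes had modest median responses, lowest in the pair labelled sarcoma, and members went both ways. The median log2 ratio of the 25 of 32 members at 5 CPM or more was 0.37 in the pair labelled lymphoma, 0.35 under the label fibroblast and 0.14 under the label sarcoma. The median contrast was 0.04, beside 0.03 over all genes. Above both other ratios lay 9 members, with 12 between and 4 below, where all genes had 38.2%, 39.6% and 22.2%. Gem, a small GTPase induced by mitogens, had 8.11 CPM with vehicle and 25.6 CPM with 4-OHT in the pair labelled lymphoma, 7.81 and 28.2 CPM in the pair labelled fibroblast, and 8.79 and 28.6 CPM in the pair labelled sarcoma. The contrast of Gem was -0.11. Klf4, a zinc finger factor, had 7.87 and 23.6 CPM (lymphoma), 7.21 and 25.8 CPM (fibroblast) and 7.87 and 22.6 CPM (sarcoma), for a contrast of -0.09. Atf3, a stress-induced bZIP factor, had 3.39 and 10.2 CPM (lymphoma), 3.48 and 11.2 CPM (fibroblast) and 3.001 and 10.3 CPM (sarcoma), for a contrast of -0.12. Trib1, a pseudokinase, had the largest contrast of the list, 0.31, from 10.1 and 17.6 CPM (lymphoma), 11.7 and 16.1 CPM (fibroblast) and 13.3 and 18.6 CPM (sarcoma). Its 4-OHT libraries stood within 16.1 to 18.6 CPM, and its vehicle library labelled lymphoma was the lowest of the 3. Below the 5 CPM limit, Fos, a founding immediate early gene, had 1.53 and 1.49 CPM (lymphoma), 1.13 and 1.78 CPM (fibroblast) and 1.16 and 2.43 CPM (sarcoma). Egr1, another, had 2.31 and 5.75 CPM (lymphoma), 2.25 and 5.94 CPM (fibroblast) and 2.68 and 8.79 CPM (sarcoma). Egr1 was higher with 4-OHT in all 3 pairs. Fos was higher in the pairs labelled 48 h and not in the pair labelled 6 h, with an edgeR interaction adjusted p of 1.

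Feedback inhibitors of the MAPK pathway and ETS factors downstream of ERK, grouped in 1 early list, gave a median ratio of -0.11 in the pair labelled lymphoma, -0.15 (fibroblast) and -0.23 (sarcoma) over 17 of 19 members. Their median contrast was 0.02. Dusp5, a phosphatase for ERK, had 4.24 and 11.5 CPM (lymphoma), 3.66 and 10.3 CPM (fibroblast) and 5.19 and 12.4 CPM (sarcoma), for a contrast of 0.05. Spry1, an inhibitor of receptor tyrosine kinase signalling, was lower with 4-OHT in every pair, at 8.78 and 4.03 CPM (lymphoma), 8.09 and 3.96 CPM (fibroblast) and 8.76 and 3.65 CPM (sarcoma). Its contrast was 0.02. The most distant members were Etv5, an ETS factor downstream of ERK, at 0.26 and Spred2, an inhibitor of Ras activation, at -0.27, neither as large as 0.5.

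Primary inflammatory genes were higher with 4-OHT in each pair, by a median log2 ratio of 1.09 (lymphoma), 1.04 (fibroblast) and 1.05 (sarcoma) over 24 of 34 members. The median contrast was 0.03, with members between -0.26 and 0.21. Ccl2, a monocyte chemoattractant, had 287 and 1294 CPM (lymphoma), 281 and 1326 CPM (fibroblast) and 316 and 1299 CPM (sarcoma). Its ratios of 2.17, 2.24 and 2.04 left a contrast of 0.03. Cxcl1, a neutrophil chemoattractant whose promoter is printed above, had 23.3 and 79.3 CPM (lymphoma), 22.98 and 79.7 CPM (fibroblast) and 26.2 and 79.5 CPM (sarcoma), for a contrast of 0.07. The 4-OHT libraries of Cxcl1 were level, and its vehicle library labelled sarcoma was slightly above the others. Nfkbia, which encodes the NF-kB inhibitor IkB-alpha, had 45.4 and 131 CPM (lymphoma), 48.2 and 134 CPM (fibroblast) and 47.0 and 131 CPM (sarcoma), for a contrast of 0.05. Tnfaip3, which encodes the deubiquitinase A20, another brake on NF-kB, was at the lower end of the list, with a contrast of -0.26 from 6.71 and 19.9 CPM (lymphoma), 5.31 and 18.5 CPM (fibroblast) and 5.38 and 20.3 CPM (sarcoma). Birc3, an NF-kB induced ubiquitin ligase, was at the upper end with 0.21.

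Interferon-induced genes, the main late list, were the strongest responders and were as high in the pair labelled 6 h. The median ratio of 52 of 57 members was 3.36 (lymphoma), 3.33 (fibroblast) and 3.30 (sarcoma). All 52 were at least 2-fold higher in the pairs labelled lymphoma and fibroblast, and 51 in the pair labelled sarcoma, where Irf9, a DNA-binding factor of the interferon response, had a ratio of 0.95. The median contrast was 0.05. Above both other ratios lay 22 members, with 22 between and 8 below, where all genes had 38.2%, 39.6% and 22.2%. Ifit1, an RNA-binding antiviral protein, had 27.5 and 415 CPM (lymphoma), 28.4 and 422 CPM (fibroblast) and 28.7 and 410 CPM (sarcoma). Its ratios were 3.89, 3.87 and 3.81, and the contrast was 0.05. Cxcl10, a T cell chemoattractant induced by interferon and NF-kB, had 6.11 and 363 CPM (lymphoma), 6.33 and 363 CPM (fibroblast) and 7.81 and 441 CPM (sarcoma), again with a contrast of 0.05. Gbp5, a guanylate-binding protein, had 2.41 and 82.5 CPM (lymphoma), 2.08 and 83.7 CPM (fibroblast) and 1.97 and 87.7 CPM (sarcoma), for a contrast of -0.26. Irf7, which amplifies type I interferon, had 19.6 and 188 CPM (lymphoma), 19.04 and 191 CPM (fibroblast) and 20 and 191 CPM (sarcoma). In all 4 genes the 4-OHT level labelled lymphoma was close to that labelled fibroblast.

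2 interferon-induced genes had a contrast above 0.5, where 0.138% of all genes reached 0.5. Mx1, a dynamin-like antiviral GTPase, had 0.916 and 50.6 CPM (lymphoma), 1.55 and 49.8 CPM (fibroblast) and 1.41 and 46.1 CPM (sarcoma). Its contrast was 0.56, with a counting interval (95%, counting error only) of -0.07 to 1.18 that includes 0. With vehicle, where the level was low, the library labelled lymphoma differed from the mean of the others by -0.48. Tgtp2, an interferon-inducible GTPase, had 2.78 and 101 CPM (lymphoma), 4.79 and 102 CPM (fibroblast) and 4.27 and 103 CPM (sarcoma). Its contrast was 0.59, with a counting interval of 0.23 to 0.95, which excludes 0. Over all 10856 genes, 18.8% had a contrast whose counting interval excluded 0, and 28.2% had such a noise scale value. Mx1 and Tgtp2 were among the genes farthest above both other ratios, so their intervals are no independent support. Tgtp2 shares most of its sequence with Tgtp1, so the split of reads between these genes is uncertain. For both genes the 4-OHT levels were close and the vehicle library labelled lymphoma was the lowest.

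The other late lists gave the same picture. Antigen presentation genes had medians of 1.41 (lymphoma), 1.52 (fibroblast) and 1.37 (sarcoma) over 20 of 22 members, and a median contrast of 0.07. H2-T23, a nonclassical class I molecule, had 33.1 and 208 CPM (lymphoma), 34.6 and 210 CPM (fibroblast) and 38.2 and 200 CPM (sarcoma). Psmb9, a subunit of the immunoproteasome, had 6.55 and 33.2 CPM (lymphoma), 6.93 and 33.1 CPM (fibroblast) and 6.41 and 32.2 CPM (sarcoma). Their contrasts were 0.16 and 0.05. Secondary inflammatory genes had medians of 2.05 (lymphoma), 1.83 (fibroblast) and 1.88 (sarcoma) over 20 of 30 members, and a median contrast of 0.07. Acod1, which makes itaconate, had 0.509 and 38.9 CPM (lymphoma), 0.352 and 36.0 CPM (fibroblast) and 0.216 and 35.3 CPM (sarcoma). Ccl5, a T cell chemoattractant, had 2.88 and 76.8 CPM (lymphoma), 3.77 and 74.5 CPM (fibroblast) and 3.06 and 94.3 CPM (sarcoma). Il15, a cytokine for NK and T cells, was the only late gene with a contrast of -0.5 or less. It had 1.70 and 10.4 CPM (lymphoma), 0.915 and 10.6 CPM (fibroblast) and 0.865 and 10.5 CPM (sarcoma). The contrast of Il15 was -0.69, with a counting interval of -1.27 to -0.10. Il15 was among the genes farthest below both other ratios, so the interval is no independent support. Its 4-OHT levels were nearly equal, and with vehicle the library labelled lymphoma was the highest, 0.66 above the mean of the others.

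**Figure D3:**
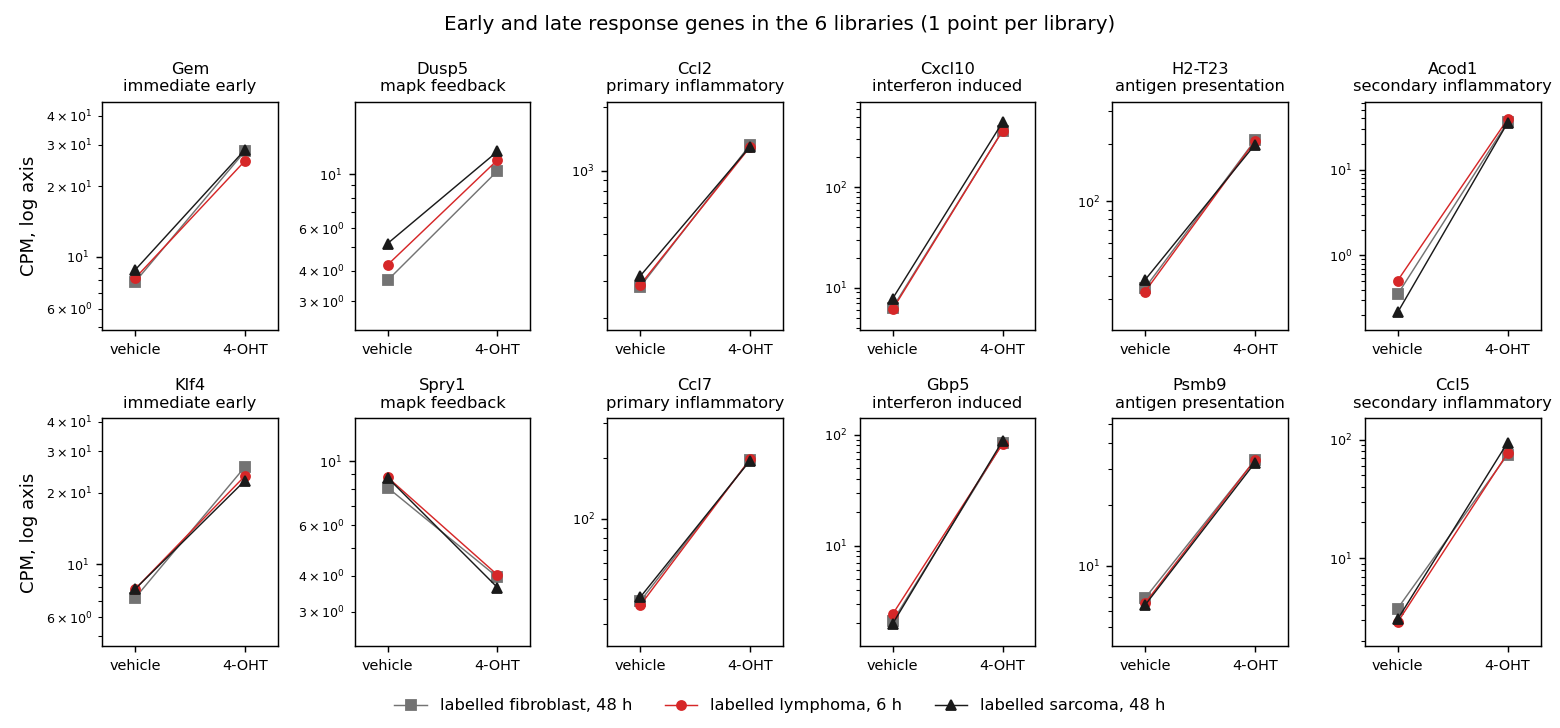
CPM (log axis) of the 2 genes with the largest mean response in each early and late list, in the vehicle and 4-OHT libraries, 1 point per library, joined by label. The red circles of the pair labelled lymphoma (6 h) follow the squares and triangles of the pairs labelled 48 h, as for Cxcl10 at 6.11 and 363 CPM.

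Taken by phase, the 66 early genes at 5 CPM or more, of 85 listed, had a median contrast of 0.04. The 92 late genes, of 105 listed genes found in the data, had 0.05, beside 0.03 for all genes. The early contrasts ran from -0.27 to 0.31, and 24 lay above both other ratios, 32 between and 10 below. Of the late genes 43 lay above, 36 between and 13 below. Over all genes the shares were 38.2% above, 39.6% between and 22.2% below. Among the late genes 2 were at 0.5 or more and 1 at -0.5 or less, beside 0.138% and 0.35% of all genes. On the deposited TPM values the medians were 0.18 (early) and 0.20 (late), and that of all genes moved to 0.17.

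The interaction between 4-OHT and the 6 h label was tested with edgeR (quasi-likelihood test, Benjamini-Hochberg adjusted p under 0.05) on 15933 genes. The cell type label served as a block, which leaves 1 residual degree of freedom, from the pairs labelled fibroblast and sarcoma, and the lone pair labelled lymphoma is assumed to vary as they do. With nothing in the labels on separate cultures, p-values measure only the spread between these libraries. The test called 1 gene higher (0.00628%) and 9 lower (0.0565%) in the pair labelled 6 h. No early or late list gene was among them. Of 180 such genes tested by edgeR, 7 had an unadjusted p under 0.05, which is 3.89% beside 3.10% of all genes. They were 1 of 78 early genes (Fos) and 6 of 102 late genes (Cfb, Il15, Mx1, Stat2, Tgtp2 and Tlr3), and the difference between these shares was not tested. The smallest adjusted p among them was 0.655, for Tgtp2. DESeq2 and limma on TPM called no early or late gene either. DESeq2 called 0 genes higher and 1 lower over all genes, with 44 at an unadjusted p under 0.05. Limma called none in either direction, with 1048 at an unadjusted p under 0.05, and edgeR without the block called none, with 346.

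Of the genes called lower, 6 of 9 are annotated as noncoding, and 3 of these 6 carry identical values and count as 1 signal. The noncoding share of the tested genes was not counted. Of the 10856 genes of at least 5 CPM, 9873 are protein-coding. Gm26917 is annotated as a long noncoding RNA gene (GRCm38 chr17:39843013-39846341, plus strand) and had very high counts. The origin of its reads in these libraries, made after ribosomal RNA depletion, was not tested. Gm26917 had 20820 and 22030 CPM (lymphoma), 12910 and 23440 CPM (fibroblast) and 12560 and 22420 CPM (sarcoma). The edgeR interaction was -0.78 (adjusted p = 0.0149), and it was the single gene that DESeq2 called as well. Its vehicle library labelled lymphoma was near the 3 4-OHT libraries, and the other vehicle libraries were lower. Rny3, which encodes a Y RNA bound by the Ro protein, had 38.5 and 23.6 CPM (lymphoma), 21.4 and 22.5 CPM (fibroblast) and 38.7 and 41.2 CPM (sarcoma), with an interaction of -0.80 (edgeR adjusted p = 0.0149). For Rny3 the vehicle library labelled lymphoma was level with the label sarcoma and the 4-OHT library with the label fibroblast. Gm23935, Gm24245 and Gm24270, annotated as miRNA genes, carry identical values, 256 and 169 CPM (lymphoma), 129 and 248 CPM (fibroblast) and 97.3 and 134 CPM (sarcoma). They are near-identical copies and count as 1 signal, with an interaction of -1.31 (edgeR adjusted p = 0.000145).

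Gm23925 had 8.34 and 8.51 CPM (lymphoma), 3.06 and 7.42 CPM (fibroblast) and 4.27 and 13.3 CPM (sarcoma), with an interaction of -1.48 (edgeR adjusted p = 0.0076). Gm8797 had 7.43 and 4.52 CPM (lymphoma), 4.12 and 7.18 CPM (fibroblast) and 3.79 and 5.39 CPM (sarcoma), with -1.39 (edgeR adjusted p = 0.0324). In both, the vehicle library labelled lymphoma was the highest of the 3 vehicle libraries. Polr2a, which encodes the largest subunit of RNA polymerase II, was the 1 well-characterised protein-coding gene called. It had 125 and 119 CPM (lymphoma), 66.5 and 118 CPM (fibroblast) and 76.1 and 106 CPM (sarcoma). Its ratios were -0.06, 0.83 and 0.47, the contrast was -0.71, and the interaction was -0.73 (edgeR adjusted p = 0.0202). The library labelled lymphoma was higher than the mean of the others by 0.80 (log2) with vehicle and by 0.09 with 4-OHT. The 4-OHT levels of Polr2a were close in all 3 pairs and the vehicle library labelled lymphoma stood with them.

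2 called genes rest on libraries at 0 counts. Gm28551 had 2.27 and 0 CPM (lymphoma), 1.06 and 2.18 CPM (fibroblast) and 1.22 and 1.501 CPM (sarcoma). Gm14406, the gene called higher, had 0 and 1.68 CPM (lymphoma), 1.62 and 1.21 CPM (fibroblast) and 0.0270 and 0 CPM (sarcoma). A count of 0 allows up to 3 counts, or 0.0811 to 0.112 CPM depending on the library. Their fitted values depend on the prior count, and reads may be shared with near-identical genes, so both are uncertain. At a mean of at least 5 CPM, edgeR called 0 genes higher and 3 lower, the 3 identical copies, with 285 at an unadjusted p under 0.05.

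By distance outside both other ratios, the genes farthest above were Gm53, Upf3b, D17H6S53E, Mx1, Tnfsf12, Tgtp2, Trappc8, Zmat2, Zdhhc2 and Oscp1. Their contrasts ran from 0.48 (Zmat2) to 0.81 (Trappc8). Upf3b, a factor of nonsense-mediated decay, had ratios of 0.14 (lymphoma), -0.47 (fibroblast) and -0.42 (sarcoma). Tnfsf12, which encodes the cytokine TWEAK, had ratios of -0.19, -1.11 and -0.73 in the same order. The farthest below, beside the RNAs already described, were Ppp2r3d (contrast -0.76), Poc1b (-0.72) and Il15. Of 19 distinct genes among these and the called genes of at least 5 CPM, the part from the vehicle libraries was the larger in 15 and the part from the 4-OHT libraries in 4. Ppp2r3d was among the 4, with -0.71 from the 4-OHT libraries. These genes were picked for extreme values, and the share of all genes with the larger vehicle part was not counted. Over all genes the SD of the difference between the label lymphoma and the mean of the others was 0.127 in the vehicle libraries and 0.0992 in the 4-OHT libraries.

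**Figure D4:**
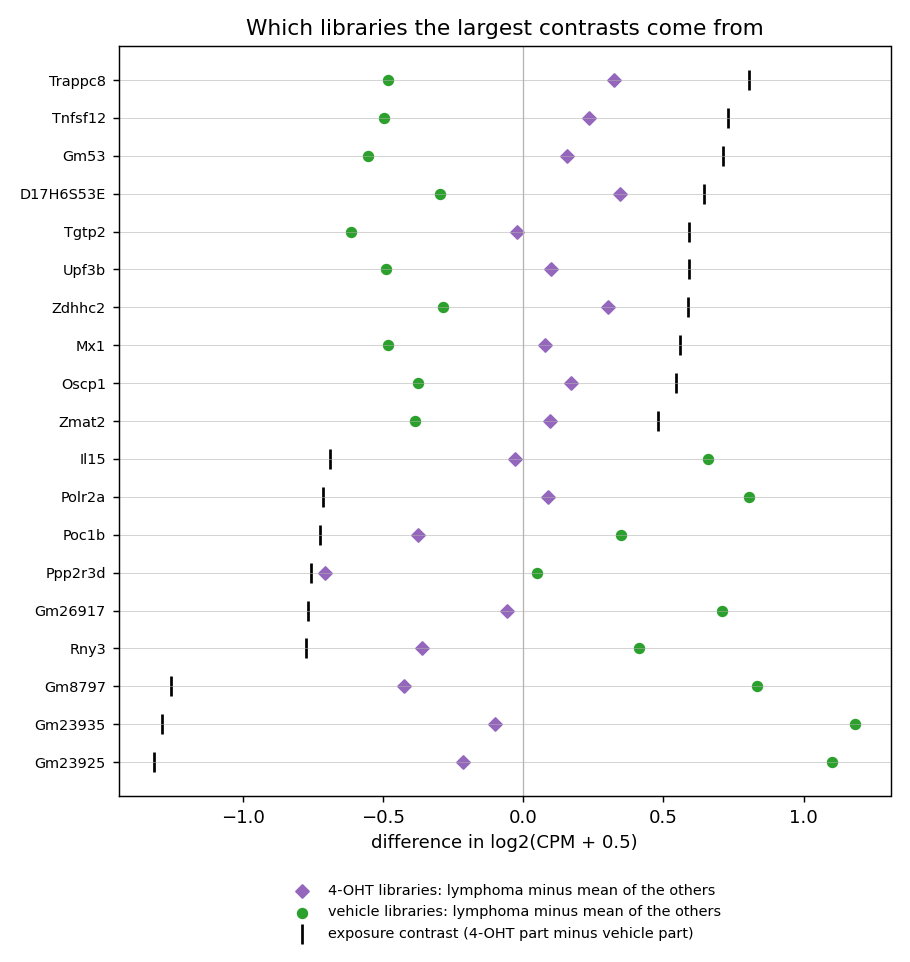
Genes lying farthest outside both other ratios or called by edgeR, at a mean of 5 CPM or more, with identical copies drawn once. Purple diamonds give the difference in log2(CPM + 0.5) between the library labelled lymphoma and the mean of the others in the 4-OHT libraries. Green circles give this difference in the vehicle libraries. The black bar is the contrast, which is the first minus the second. In 15 of the 19 genes the green circle lies farther from 0 than the purple diamond.

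Among 20 further lists, 18 had a median contrast between -0.02 and 0.08. Targets of the p53 family (26 genes of at least 5 CPM) had medians of 0.08 (lymphoma), 0.07 (fibroblast) and 0.01 (sarcoma) in these p53-null cells, and a median contrast of 0.06. Fas, a death receptor, had 5.63 and 21.9 CPM (lymphoma), 6.97 and 21.0 CPM (fibroblast) and 7.62 and 23.1 CPM (sarcoma), for the largest contrast of that list, 0.34. Amino acid response genes under ATF4 (36 genes) had medians of 0.44, 0.47 and 0.32 in the same order and a median contrast of 0.06. Slc7a11, the cystine transporter, had 21.4 and 87.5 CPM (lymphoma), 24.0 and 82.7 CPM (fibroblast) and 23.3 and 81.9 CPM (sarcoma), for a contrast of 0.23. Extracellular matrix genes (32 genes) were lower with 4-OHT by a median of -0.49 (lymphoma), -0.44 (fibroblast) and -0.49 (sarcoma). Cthrc1, a secreted collagen regulator, had 34.9 and 7.20 CPM (lymphoma), 35.3 and 7.88 CPM (fibroblast) and 35.0 and 7.29 CPM (sarcoma). The contrast of Cthrc1 was -0.06. Esr1, which encodes the estrogen receptor that 4-OHT binds, had 240 and 114 CPM (lymphoma), 228 and 115 CPM (fibroblast) and 230 and 119 CPM (sarcoma), for a contrast of -0.10. Genes of DNA replication (39 genes) had a median contrast of 0.06, sterol synthesis (25 genes) 0.04 and circadian clock (15 genes) 0.03.

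The replication-dependent histone genes stood apart from that range. Their median ratio was -0.64 in the pair labelled lymphoma, -0.27 under the label fibroblast and -0.52 under the label sarcoma over 60 genes. The median contrast was -0.27. Below both other ratios lay 55 of 60, with 4 between and 1 above, where 22.2% of all genes lay below. On the deposited TPM values 33 of 62 histone genes lay below, where 963 of all 9621 genes did. Hist1h2bp, an H2B gene, had 81.4 and 50.3 CPM (lymphoma), 78.9 and 66.7 CPM (fibroblast) and 82.7 and 66.5 CPM (sarcoma), for a contrast of -0.41. Hist2h2ab, an H2A gene, had 16.2 and 7.02 CPM (lymphoma), 16.2 and 10.7 CPM (fibroblast) and 18.8 and 10.7 CPM (sarcoma), for -0.47. In both genes the vehicle levels were close and the 4-OHT library labelled lymphoma was the lowest. Over the list the 4-OHT libraries contributed a median of -0.25 and the vehicle libraries 0.01. The pairs labelled 48 h also differed from each other in this list, with a median noise scale of 0.23, none of the 60 contrasts reached -0.5, and edgeR called none of them. The share of small noncoding RNA in the counts was 11.6% with vehicle and 8.50% with 4-OHT in the pair labelled lymphoma. It was 10.6% and 10.9% in the pair labelled fibroblast, where it did not fall, and 10.8% and 10.0% in the pair labelled sarcoma. The share of annotated ribosomal RNA was 1.63% and 2.41% (lymphoma), 3.62% and 2.29% (fibroblast) and 0.573% and 2.21% (sarcoma). The part of either share in the histone values was not tested. Histone genes come in near-identical copies, so single members are uncertain.

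Transcripts of the mitochondrial genome (13 genes) had a median contrast of 0.21, and here the 48 h pairs were farther apart, with medians of -0.49 (fibroblast) and 0.06 (sarcoma) around 0.01 (lymphoma). The median noise scale was -0.49. For mt-Atp8, a subunit of ATP synthase, the values were 97.4 and 92.3 CPM (lymphoma), 177 and 91.6 CPM (fibroblast) and 101 and 107 CPM (sarcoma), so that the vehicle library labelled fibroblast was the 1 that stood apart.

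**Figure D5:**
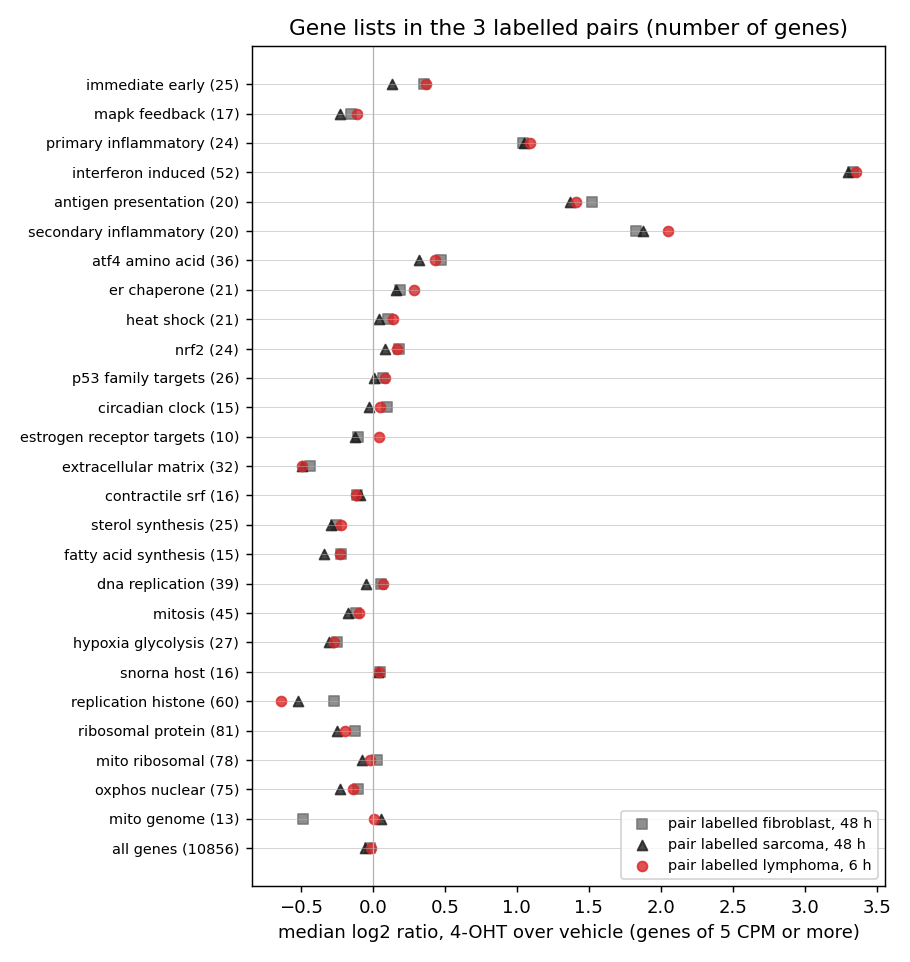
Median log2 ratio of 4-OHT over vehicle in each gene list (number of genes in brackets) for the pairs labelled lymphoma (red circles), fibroblast (squares) and sarcoma (triangles). The markers nearly coincide for the interferon-induced list at 3.30 to 3.36 and are spread for the histone list, at -0.64 to -0.27, and the mitochondrial genome list.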

How the data were processed

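RNA abundance was deposited for 6 libraries, made with a stranded total RNA kit after ribosomal RNA depletion, per the labels' protocols. The authors deposited estimated counts and TPM per transcript, for which the submitters' processing notes name kallisto 0.43.0 and the build GRCm38; transcript set and strand setting are not given in the sources used here. Of 76055 targets, 75049 matched a gene of GENCODE M21, and the other 1006 held up to 0.410% of counts and were left out. Per gene (35856 genes) the estimated counts of its targets were added, rounded and scaled by TMM. Kallisto shares reads between near-identical copies, so such genes are uncertain. Ratios used a pseudocount of 0.5 CPM and a mean of at least 5 CPM. Counting intervals (95%, delta method) cover counting error only. The interaction was fitted with edgeR 4.0.16 (quasi-likelihood, two-sided, filterByExpr by arm, label as block, 1 residual and 17.6 prior degrees of freedom) and was tested on simulated counts. R 4.3.3, limma 3.58.1, DESeq2 1.42.0, Python 3.11.15, pandas 2.3.3 and numpy 2.4.6 were used. Alternatives for the contrast were DESeq2 size factors, library totals, a pseudocount of 5, the deposited TPM (pseudocount 0.5), other filters, protein-coding genes only and leaving out a 48 h pair. Alternatives for the interaction were DESeq2 size factors, other filters, protein-coding genes only, DESeq2, limma on log2(TPM + 1) and no block.

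Groups came from the titles in the labels. Named genes were Mdm2 and Trp53; the 10 genes lying farthest above and the 10 farthest below both other ratios; in each list the 2 farthest members in each direction and the 2 with the largest mean response; the 5 smallest interaction p-values; and all called genes. Cxcl1, Egr1, Fos, Ifit1, Irf7, Irf9, Nfkbia and Stat2 fall outside this rule and were chosen after their values were seen. The comparison, the lists and the rule were chosen with earlier results of these data known. Promoters come from RefSeq (GRCm38.p6).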

Additional observations from a re-analysis of the deposited data

Results flagged for a closer look

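The edgeR interaction between 4-OHT and the 6 h label, a test of the difference between the responses, passed an adjusted p of 0.05 for 10 genes under the block on the cell type label. None of them was called without the block or by limma, DESeq2 called only Gm26917, and edgeR at a mean of at least 5 CPM called only the 3 identical copies. Gm14406 and Gm28551 have libraries at 0 counts: their fitted values of 9.10 and -9.78 depend on the prior count and are no measure of size, and the counting intervals of their contrasts (2.32 and -2.97) include 0. The interaction was -1.31 for each of Gm23935, Gm24245 and Gm24270, which hold identical values and count as 1 signal. Gm23925 had -1.48, Gm8797 -1.39, Rny3 -0.80, Gm26917 -0.78 and Polr2a -0.73. The 3 libraries of each arm carry different cell type labels, and which label goes with the difference cannot be told apart from the exposure time.

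Among the 20 genes lying farthest outside both other ratios, 5 that edgeR did not call had a ratio of 1 sign in the pair labelled 6 h and of the other sign in both pairs labelled 48 h. The called genes other than Gm23925 and Gm26917 also had opposite signs. For the 5, the contrasts were 0.64 for D17H6S53E, 0.59 for Upf3b, 0.59 for Zdhhc2, 0.55 for Oscp1 and 0.48 for Zmat2. The edgeR test of the interaction missed its threshold for each of them, with adjusted p of 1, 0.655, 1, 1 and 0.565 in that order. These genes were picked from 10856 for lying far outside the other ratios.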

How the results depend on the processing

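On DESeq2 size factors, library totals, a pseudocount of 5, protein-coding genes only, at least 1 CPM and at least 20 CPM, the ratio of the SDs (0.789) was 0.790, 0.790, 0.762, 0.884, 0.856 and 0.729. On the deposited TPM it was 0.948, and 109 genes passed 1 in each direction. Genes at 1 or more (0) and at -1 or less (6) numbered 1 and 1 among protein-coding genes and 9 and 16 at a mean of at least 1 CPM; a pseudocount of 5 gave 3 lower. Without the fibroblast or the sarcoma pair, the ratio was 0.801 to 0.890, with 1 to 3 genes higher and 5 to 14 lower; 14 came without the pair labelled fibroblast. The early median (0.040) was 0.18 on TPM and 0.011 to 0.062 without a pair. The late median (0.052) was 0.042 on size factors, 0.069 on totals, 0.20 on TPM, 0.029 among protein-coding genes, and 0.027 to 0.077 without a pair. Both stayed above 0, and TPM moved all genes to 0.17. Interaction calls (1 higher, 9 lower) were 11 and 31 with any count, 0 and 3 at 5 CPM, 1 and 3 among protein-coding genes, 1 and 7 with size factors, 0 and 1 with DESeq2, and 0 and 0 without the block or with limma. The cause was not tested, except that the filters change which genes enter. Of 1033 values for 152 named genes, 246 moved beyond the spread between pairs. A reversal was counted only where a contrast of at least 1 in absolute size changed sign. Most named genes had smaller contrasts and could not reverse, so the count of 0 reversals says little. Of 28 list medians, 8 changed sign under at least 1 setting: circadian clock, extracellular matrix, fatty acid synthesis, snoRNA host, ribosomal protein, mitochondrial ribosomal, oxidative phosphorylation and mitochondrial genome. The ratios and the edgeR fit already pair the libraries of a label; the labels number no replicates that could form another block, and leaving out a 48 h pair leaves no residual degree of freedom. The median counting error of a contrast was 0.0879.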
